A study of Bos taurus with 6 samples.

Results

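Translation factors are the proteins that carry a ribosome through initiation, elongation and termination. In initiation, the eIF4 factors bind the cap of a messenger RNA and unwind it, eIF2 delivers the initiator transfer RNA, and eIF3 holds the small ribosomal subunit. The eIF2 kinases and the eIF4E binding proteins turn initiation down. In elongation, eEF1A brings aminoacyl transfer RNAs, the eEF1B subunits recharge eEF1A with GTP, and eEF2 moves the ribosome along. A fully grown oocyte transcribes little, so it depends on stored messenger RNAs whose translation is switched on during meiotic maturation and early cleavage.

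The genes of these factors were taken from the array's platform annotation as all symbols that begin with EIF1 to EIF6 or with EEF1 or EEF2, together with ETF1. This gave 60 genes on 90 of the 43794 probes of the array. One probe lay on a spot that the image analysis had marked as ignored. Of the other 89, 81 probes of 57 genes had enough signal to be tested, among 12314 tested genes with a symbol in all. Measured values played no part in the choice of members, but the group was proposed with earlier results of these data in view. EIF1AY, EIF2C1 and EIF4EBP1 had no tested probe, being above the negative controls in at most 2 of 6 antagonist readings and 1 of 6 control readings. RefSeq's bovine table places EIF1AY on the Y chromosome. Some members are not translation factors in the strict sense. EIF2C1, EIF2C2 and EIF2C3 are older symbols of the Argonaute genes AGO1, AGO2 and AGO3, and EIF1AD is named for its similarity to a domain of eIF1A. No annotated probe carried the symbol of EIF3A or of EIF4G1, the main scaffold of the cap complex.

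The oocytes came from 3 cycling Holstein cows in their 2nd parity. Antagonist oocytes were collected after FSH given for 3 days at 12 h intervals and 68 h of coasting without FSH under a GnRH antagonist (cetrotide). Control oocytes came from the same cows after the same FSH and coasting without the antagonist. The cows passed through both protocols at least a month apart, so a difference between collections or RNA amplifications cannot be told apart from the antagonist. Oocytes were stripped of cumulus cells mechanically, and RNA of each collection was pooled and amplified. How many oocytes a pool held is not given in the sources used here, and in a pool more transcript per oocyte and another mix of cells cannot be told apart.

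Both RNAs of a cow were hybridised together on 2-colour arrays, once in each dye orientation, which made 6 arrays and 3 replicates (1 per cow). All ratios are log2 antagonist over control, averaged over both arrays of a cow, and are given as mean ± SD (n = 3 cows). Levels are log2 spot intensities normalized within arrays but not between them. They compare conditions for 1 probe within a cow but not different genes, and between cows they include the brightness of the arrays. Overlap of antagonist and control values across cows is therefore given as a description, without the share of all tested genes. Negative controls set the background, and between 55.8% and 77.5% of probes exceeded it per channel. Of the oocyte markers, 20 of the 21 on the array exceeded it in all 12 readings. Of 22 granulosa and cumulus markers 9 did, and 4 (AMH, AMHR2, CYP11A1 and FOXL2) exceeded it in none. The summed intensity of the 16 tested granulosa and cumulus markers lay between 35249 and 46557 in antagonist oocytes and between 37870 and 57273 in control oocytes. Most of this sum came from STAR and SERPINE2, at mean log2 intensities of 14.33 and 13.86. The next brightest, NR5A2, lay at 11.39, so the sum says little about the other markers. Theca and stromal markers exceeded background in all 12 readings for 6 of 13 and in none for 2 (DCN and LUM). Their summed intensity lay between 4642 and 7146 in antagonist oocytes and between 4155 and 4839 in control oocytes. Blood and endothelial markers exceeded background in all 12 readings for 5 of 13 and in none for 3 (LYZ, PECAM1 and TYROBP), with sums of 2177 to 2350 in antagonist oocytes and 2241 to 2819 in control oocytes. Oocyte markers themselves had mean ratios above 0 for 15 of 21, with a median of 0.12, and 5 were higher and 1 was lower by limma's unadjusted p under 0.05. Those of smallest p were ZP3 at 0.60 ± 0.15, NLRP5 at 1.11 ± 0.35 and TCL1A at 0.27 ± 0.048, and the lower one was ZAR1 at -0.34 ± 0.23. All 10 tested theca and stromal markers had means above 0, from 0.0071 to 0.60 with a median of 0.04, and none passed at unadjusted p. Granulosa and cumulus markers were above 0 for 8 of 16, with a median of -0.0045. The part of oocyte content and of other cells in the ratios below was not tested.

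The comparison asked which stored messenger RNAs of the translation machinery differed when GnRH action was blocked during coasting. None of the 57 genes passed correction by limma over the 32527 probes tested, and neither did any other probe (0% called at an adjusted p under 0.05). The lowest adjusted p among the translation factors was 0.28. By limma's unadjusted p under 0.05, 7 genes were higher (12.3%, against 8.57% of all tested genes) and 3 were lower (5.26%, against 6.57%). When the mean also had to reach 1.5-fold, 4 genes were higher (7.02%, against 2.76% of all genes) and 0 lower (against 0.601%). A mean above 0 was found in 25 of the 57 (43.9%), against 52% of all genes. The shares of lower genes were near the background, and those of higher genes stood above it by a few members. Among genes above background in all 12 readings, 6 of 52 translation factors were higher (11.5%, against 10.9% of the 8672 such genes) and 3 were lower (5.77%, against 8.6%). The median ratio of the 57 genes was -0.02, against 0.0044 for all tested genes. By cow the members' median was 0.05, -0.03 and 0.00054 in cows 1, 2 and 3.

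The count of unadjusted calls depended on the cows. Without cow 1 it was 13 higher and 9 lower, without cow 2 it was 5 and 1, and without cow 3 it was 2 and 1. The shares of all tested genes were not computed without single cows, so these counts have no background. EIF1AD and EEF1G kept an unadjusted p under 0.05 by limma whichever cow was left out. Another fit took the 6 single arrays with a random block for the cow and a dye term. There 848 of the 32527 probes tested passed at an adjusted p under 0.05, as did 3 of the 57 translation factor genes on their brightest probes. These were EIF1AD (adjusted p = 0.012), EEF1G (adjusted p = 0.023) and EIF4A1 (adjusted p = 0.031), all higher. Of the 848 probes, 614 were higher and 234 lower, and the share of all tested genes was not computed in this fit. The fit assumes the same correlation between arrays of a cow for every probe, estimated at 0.77. For EIF4A1 the arrays of cows 1, 2 and 3 gave 0.79 and 0.99, 2.54 and 2.66, and 1.80 and 1.84. Where cows differ this much more than their arrays, a shared correlation makes the p-value too small.

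**Figure D1:**
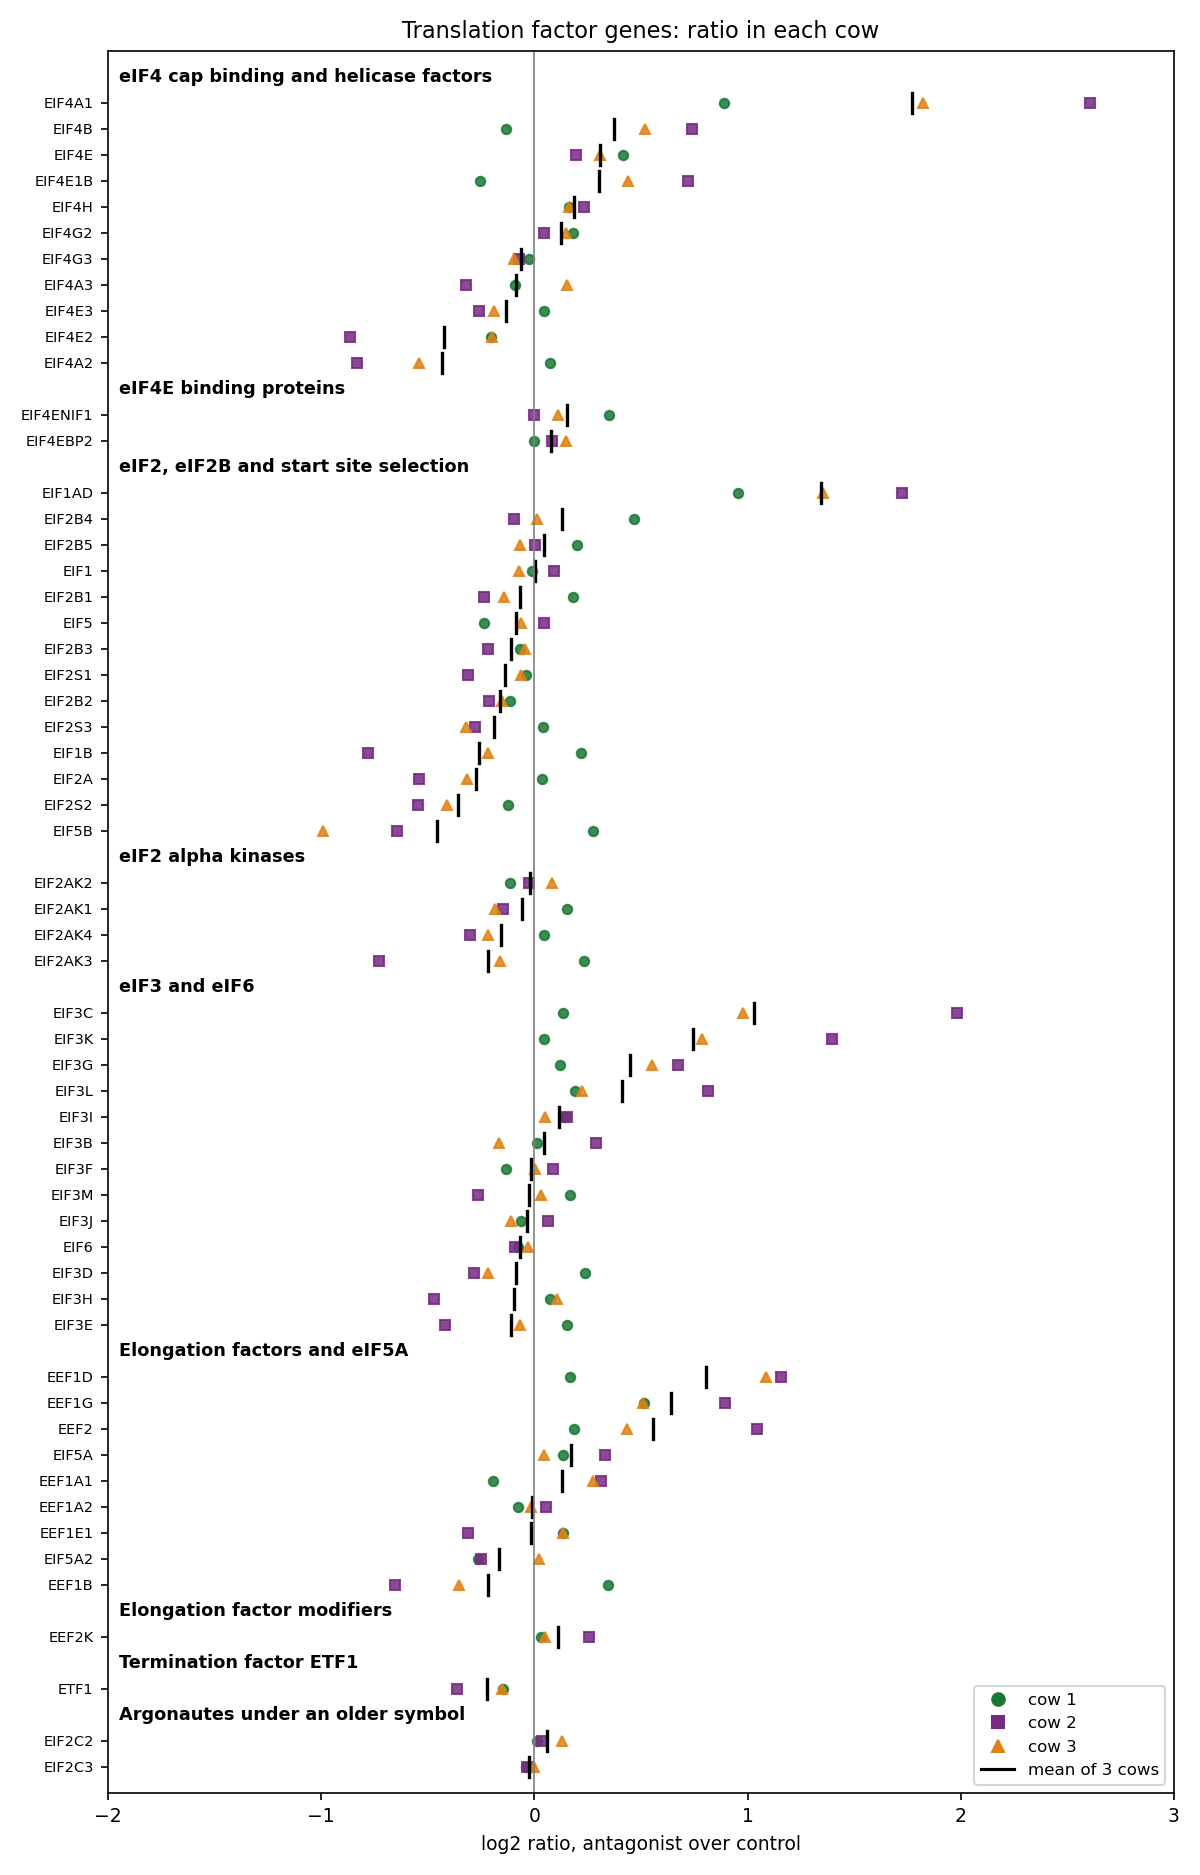
Log2 ratio of antagonist over control (horizontal axis) for each of the 57 tested translation factor genes, grouped by role from top to bottom, with the brightest probe per gene. Points are the 3 cows and the black bar is their mean. EIF4A1, at 1.77, has the highest mean and EIF5B, at -0.45, the lowest; cow 2 lies farthest from 0 in 39 of the 57 genes.

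The cap-binding and unwinding factors held the highest ratio of the group. EIF4A1 encodes the helicase that unwinds the leader of messenger RNAs during scanning. On its probe EMBV3_25246 it had log2 intensities of 11.60, 13.27 and 12.94 in antagonist oocytes of cows 1, 2 and 3, against 10.71, 10.67 and 11.12 in control oocytes. Every antagonist value lay above every control value, a description across cows on levels not normalized between arrays. How many of all tested genes separate in this way was not computed. The ratios were 0.89, 2.60 and 1.82, a mean of 1.77 ± 0.86 or 3.42-fold (limma, unadjusted p = 0.012, adjusted p = 0.30), positive on 6 of 6 arrays. Without cow 3 the unadjusted p was no longer under 0.05.

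The paralogue EIF4A2, which encodes a near-identical helicase, had a mean ratio of opposite sign. Its log2 intensities were 11.61, 11.10 and 11.32 in antagonist oocytes and 11.54, 11.93 and 11.86 in control oocytes. The groups overlapped through cow 1, and the ratio was -0.43 ± 0.46 (limma, unadjusted p = 0.11). Arrays with control in Cy5 gave -0.39, -1.31 and -1.05 in cows 1, 2 and 3, and those with antagonist in Cy5 gave 0.53, -0.36 and -0.04. With antagonist in Cy5 alone the sign of the EIF4A2 mean changed, and limma called a dye term of 0.48 (adjusted p = 9.7e-07). Within each cow the EIF4A1 ratio exceeded that of EIF4A2, by 0.82, 3.44 and 2.36 on the log2 scale in cows 1, 2 and 3. This pair was chosen after its values had been seen, so its difference is a description and was not tested. EIF4A3, the third member of the family, whose product marks exon junctions, had a ratio of -0.09 ± 0.24.

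EIF4E, the cap-binding protein, had log2 intensities of 10.29, 10.41 and 10.24 in antagonist oocytes, against 9.87, 10.22 and 9.93 in control oocytes. The antagonist values all lay above the control values, with the lowest antagonist and the highest control value only slightly apart. Its ratio was 0.31 ± 0.11 (limma, unadjusted p = 0.010, adjusted p = 0.29), positive on 6 of 6 arrays. A second probe of EIF4E gave 0.26 ± 0.11, whereas the dimmest of the 3 gave -0.18 ± 0.21. The call was lost without cow 3 (unadjusted p = 0.068 by limma) and with the mean of the 3 probes, 0.13 (unadjusted p = 0.17 by limma). EIF4E2, which encodes a cap-binding homologue that represses translation, had negative ratios in each cow, at -0.20, -0.87 and -0.20, a mean of -0.42 ± 0.38 (limma, unadjusted p = 0.077). Its other probe gave -0.45 ± 0.19 (limma, unadjusted p = 0.011). That probe gave 0.28, 0.04 and 0.45 with control in Cy5, but -1.24, -1.28 and -0.94 with antagonist in Cy5, in cows 1, 2 and 3. Limma called a dye term of -0.70 for it (adjusted p = 1.9e-07) and of -0.33 for the brightest probe (adjusted p = 5.0e-05). In each cow EIF4E had a higher ratio than EIF4E2, by a mean of 0.73 ± 0.29, a description for the same reason as above.

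EIF4E1B, the homologue made in oocytes, had log2 intensities of 9.79, 10.94 and 10.83 in antagonist oocytes and 10.05, 10.22 and 10.39 in control oocytes. Cow 1 lay below its control and cows 2 and 3 above theirs, at ratios of -0.25, 0.72 and 0.44. The mean of 0.30 ± 0.50 had an unadjusted p of 0.25 by limma. Its other probe gave the same order of cows, at -0.03, 0.76 and 0.43. The brightest probe gave 0.0082, 1.15 and 0.81 with control in Cy5, but -0.52, 0.29 and 0.07 with antagonist in Cy5, where the sign of its mean changed. Limma called a dye term of -0.35 for it (adjusted p = 2.7e-05) and of -0.27 for the other probe (adjusted p = 3.3e-05). EIF4E3 had a ratio of -0.13 ± 0.16.

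The helpers of the helicase had positive means. EIF4H, which stimulates eIF4A, had log2 intensities of 8.64, 8.98 and 8.67 in antagonist oocytes and 8.48, 8.75 and 8.51 in control oocytes. The groups overlapped because the values of cow 2 lay higher in both conditions, where cow and array brightness cannot be told apart. The ratios of 0.16, 0.23 and 0.16 were close to each other. The mean was 0.18 ± 0.040 (limma, unadjusted p = 0.015, adjusted p = 0.31), and its other probe gave 0.34 ± 0.052. The call of the brightest probe was lost without cow 2 (unadjusted p = 0.061 by limma) and without cow 3 (unadjusted p = 0.083 by limma). EIF4B had ratios of -0.13, 0.74 and 0.52, a mean of 0.37 ± 0.45. The scaffold gene EIF4G3 had -0.06 ± 0.036 and EIF4G2, which encodes a scaffold that lacks the eIF4E site, 0.12 ± 0.070. EIF4G2 averaged 0.49 over the 3 arrays with antagonist in Cy5 and -0.24 over those with control in Cy5. In all, 3 of the 11 eIF4 genes tested were higher at unadjusted p (8.57% of all tested genes were), 0 were lower (6.57% of all) and 8 did not pass, with a median of 0.12.

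Among the proteins that hold eIF4E back, EIF4ENIF1, which encodes the eIF4E transporter 4E-T of oocyte and somatic storage granules, had a ratio of 0.15 ± 0.18. Its values were 0.35, -0.0033 and 0.11 in cows 1, 2 and 3. EIF4EBP2 had 0.08 ± 0.075 and was dim, with a mean log2 intensity of 7.91. Neither passed at an unadjusted p under 0.05 by limma.

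**Figure D2:**
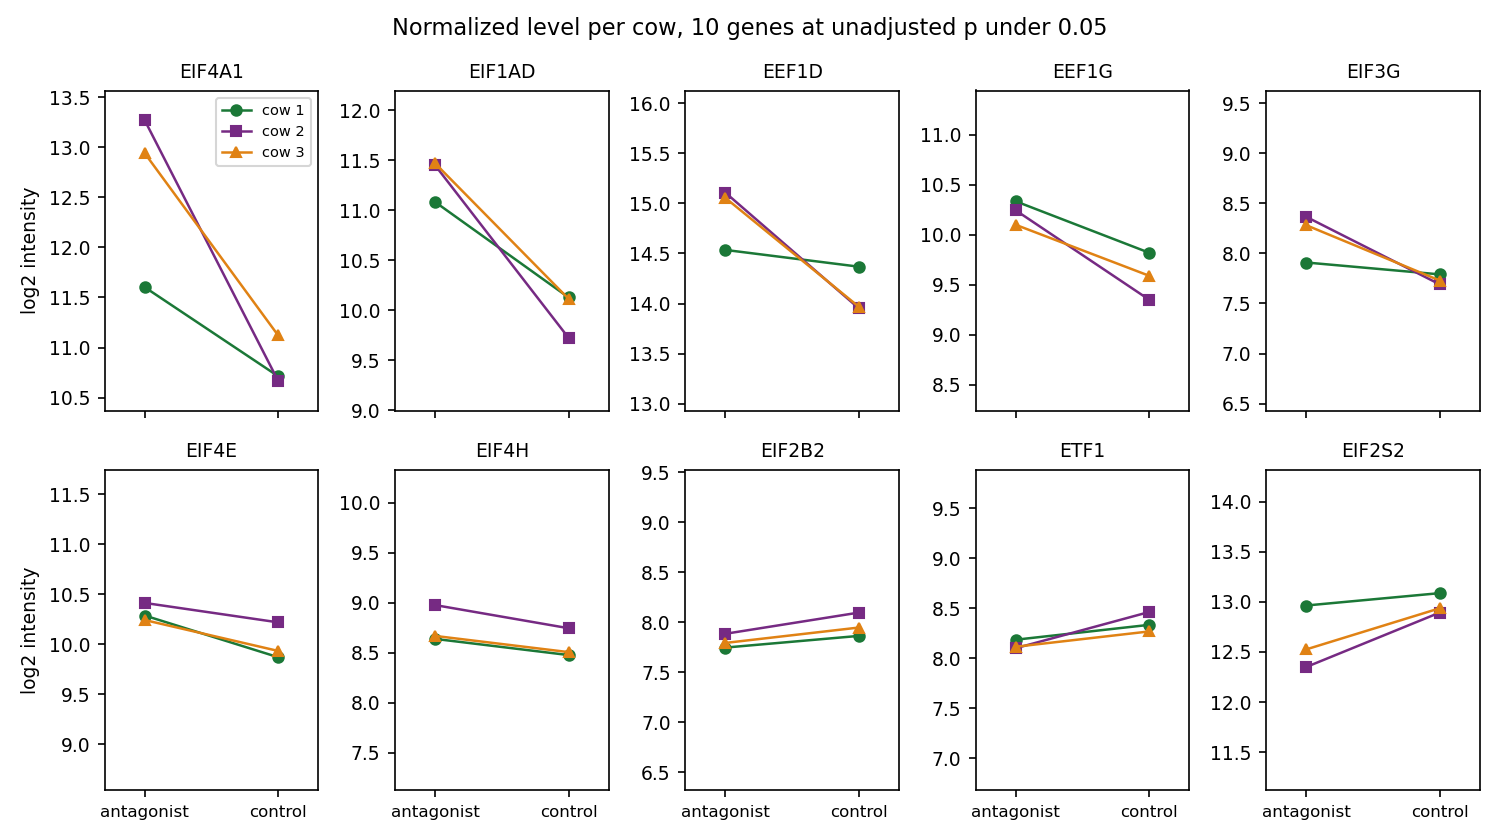
Normalized log2 intensity (vertical axis, with the same span in each panel) in antagonist oocytes (left) and control oocytes (right) for the 10 translation factor genes at an unadjusted p under 0.05 by limma. Each line is 1 cow. EIF4A1 and EIF1AD have the steepest lines, whereas EIF4H, EIF2B2 and ETF1 differ by less than 0.4 in each cow.

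Of the 14 genes of eIF2, eIF2B and start site selection, 4 had a mean above 0, as did 52% of all tested genes, and 10 a mean below 0, with a median of -0.12. At unadjusted p, 1 was higher (8.57% of all), 2 were lower (6.57% of all) and 11 did not pass. The higher gene was EIF1AD, which is not a translation factor in the strict sense and is named for its similarity to a domain of eIF1A. No other gene of this group was higher at unadjusted p. EIF1AD had log2 intensities of 11.08, 11.45 and 11.47 in antagonist oocytes against 10.13, 9.72 and 10.11 in control oocytes. The groups did not overlap. Its ratio was 1.34 ± 0.39 or 2.54-fold (limma, unadjusted p = 0.0024, adjusted p = 0.28), positive on 6 of 6 arrays. A second EIF1AD probe gave 0.09 ± 0.065, but it was above background in 3 of 6 antagonist readings and 1 of 6 control readings.

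All 3 subunits of eIF2, the complex that carries the initiator transfer RNA, had negative means. EIF2S2, the beta subunit, had log2 intensities of 12.96, 12.35 and 12.53 in antagonist oocytes and 13.09, 12.89 and 12.94 in control oocytes. Antagonist cow 1 overlapped with the controls, and the ratio was -0.36 ± 0.21 (limma, unadjusted p = 0.029, adjusted p = 0.34). The 3 arrays with antagonist in Cy5 gave a mean of -0.72 and the 3 with control in Cy5 gave 0.0033, on either side of the balanced mean, and limma called a dye term of -0.36 (adjusted p = 1.1e-05). Its call was lost without cow 2 (unadjusted p = 0.093 by limma) and without cow 3 (unadjusted p = 0.13 by limma). EIF2S1, the alpha subunit that the eIF2 kinases phosphorylate, had ratios of -0.04, -0.31 and -0.06, a mean of -0.14 ± 0.15 and negative on 6 of 6 arrays. EIF2S3, the GTP-binding gamma subunit, had -0.19 ± 0.20. In cows 1, 2 and 3 it gave 0.27, 0.00092 and -0.07 with antagonist in Cy5, but -0.19, -0.56 and -0.58 with control in Cy5. The sign of its mean thus changed with antagonist in Cy5 alone, and limma called a dye term of 0.25 (adjusted p = 4.0e-05). EIF2A, which encodes an alternative carrier of initiator transfer RNA, had -0.27 ± 0.29.

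The exchange factor eIF2B, which recharges eIF2 with GTP, had ratios between -0.16 and 0.13 over its 5 subunits. EIF2B2 had -0.12, -0.21 and -0.15 in cows 1, 2 and 3, a mean of -0.16 ± 0.048 (limma, unadjusted p = 0.025, adjusted p = 0.33). Its log2 intensities of 7.75, 7.89 and 7.79 in antagonist oocytes overlapped with 7.86, 8.10 and 7.95 in control oocytes. The ratio did not pass at unadjusted p whichever cow was left out, and its 2 other probes gave -0.07 and -0.0029. The catalytic subunit EIF2B5 had 0.05 ± 0.14, EIF2B1 -0.07 ± 0.22, EIF2B3 -0.11 ± 0.095 and EIF2B4 0.13 ± 0.30.

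EIF5B, which joins the ribosomal subunits at the end of initiation, had the lowest mean ratio of the group. Its log2 intensities were 10.88, 9.94 and 10.10 in antagonist oocytes and 10.60, 10.58 and 11.09 in control oocytes. Cow 1 was higher and cows 2 and 3 were lower than their controls, so the mean of -0.45 ± 0.66 had an unadjusted p of 0.20 by limma. EIF5, the activator of eIF2's GTPase, had -0.08 ± 0.14 on its brightest probe and -0.54 ± 0.58 and -0.13 ± 0.22 on the others. EIF1, which guards the choice of start codon, had 0.0033 ± 0.084 on its brightest probe, the brightest of the tested members. The other EIF1 probe, EMBV3_27362, had log2 intensities of 10.65, 10.17 and 10.37 in antagonist oocytes, against 11.15, 11.48 and 11.04 in control oocytes. There the groups did not overlap, and the ratio was -0.83 ± 0.43 (limma, unadjusted p = 0.015, adjusted p = 0.31), negative on 6 of 6 arrays. The homologue EIF1B had 0.22, -0.78 and -0.22, a mean of -0.26 ± 0.50.

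The 4 eIF2 kinases, which slow initiation under stress, all had negative means and none passed at unadjusted p by limma. Of all tested genes 52% had a mean above 0. EIF2AK3, the kinase PERK of the endoplasmic reticulum, had ratios of 0.23, -0.73 and -0.16. EIF2AK4, the amino acid sensor GCN2, had -0.16 ± 0.18, EIF2AK1, the haem-regulated kinase, -0.06 ± 0.19, and EIF2AK2, the RNA-activated kinase PKR, -0.02 ± 0.099. The last was above background in 4 of 6 antagonist and 3 of 6 control readings. The means of EIF2AK2 and EIF2AK3 changed sign with antagonist in Cy5 alone, and that of EIF2AK4 with control in Cy5 alone. In cow 1 the median over the kinases was 0.10, in cow 2 -0.23 and in cow 3 -0.17.

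The subunits of eIF3 did not move as a block. Of 12 tested subunits 6 had positive and 6 negative means, from -0.11 to 1.03. At unadjusted p 1 was higher (8.57% of all tested genes were). The SD among subunits was 0.11, 0.76 and 0.39 in cows 1, 2 and 3. EIF3C had log2 intensities of 13.68, 14.61 and 14.24 in antagonist oocytes, against 13.55, 12.63 and 13.26 in control oocytes. The groups did not overlap, but the ratios of 0.13, 1.98 and 0.98 differed so much that the mean of 1.03 ± 0.93 had an unadjusted p of 0.071 by limma. Its other, dim probe gave -0.03 ± 0.044. EIF3K had 0.05, 1.40 and 0.79, and EIF3L had 0.19, 0.81 and 0.22, with the same cow highest.

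EIF3G, an RNA-binding subunit, had log2 intensities of 7.91, 8.37 and 8.28 in antagonist oocytes and 7.79, 7.69 and 7.73 in control oocytes, without overlap. Its ratio was 0.45 ± 0.29 (limma, unadjusted p = 0.033, adjusted p = 0.35), and its other probe gave 0.30 ± 0.17. The 3 arrays with antagonist in Cy5 gave -0.07 for the brightest probe and those with control in Cy5 gave 0.96, with a dye term of -0.52 (limma, adjusted p = 3.2e-06). Its call was lost without cow 2 (unadjusted p = 0.12 by limma) and without cow 3 (unadjusted p = 0.15 by limma). The other probe was positive on 6 of 6 arrays. The remaining subunits EIF3B, EIF3D, EIF3E, EIF3F, EIF3H, EIF3I, EIF3J and EIF3M had means between -0.11 and 0.11. EIF3F had 4 tested probes, from -0.30 to 0.01, of which the probe at -0.30 ± 0.057 was negative on 6 of 6 arrays. EIF6, which keeps the ribosomal subunits apart, had -0.07 ± 0.033.

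The elongation factors differed by subunit. EEF1D, the delta subunit of the exchange complex eEF1B, had log2 intensities of 14.54, 15.11 and 15.06 in antagonist oocytes and 14.37, 13.95 and 13.97 in control oocytes. All antagonist values lay above all control values, and the ratio was 0.80 ± 0.55 or 1.75-fold (limma, unadjusted p = 0.036, adjusted p = 0.36). Its call was lost without cow 2 (unadjusted p = 0.13 by limma), without cow 3 (unadjusted p = 0.16 by limma) and on the arrays with control in Cy5 alone (unadjusted p = 0.086 by limma). EEF1G, the gamma subunit, had 10.33, 10.24 and 10.10 in antagonist oocytes, against 9.82, 9.35 and 9.59 in control oocytes. These did not overlap either, and the ratio was 0.64 ± 0.22 or 1.56-fold (limma, unadjusted p = 0.0051, adjusted p = 0.29), positive on 6 of 6 arrays. The catalytic beta subunit EEF1B2, annotated as EEF1B, had ratios of 0.35, -0.65 and -0.35, a mean of -0.22 ± 0.51. In cow 1, EEF1B2 thus had a higher ratio than EEF1D, by 0.18, whereas in cows 2 and 3 EEF1D exceeded it by 1.81 and 1.44.

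EEF2, the translocase, had log2 intensities of 9.78, 10.47 and 10.02 in antagonist oocytes, against 9.60, 9.42 and 9.58 in control oocytes. The groups did not overlap, and the ratio was 0.56 ± 0.44 (limma, unadjusted p = 0.054), positive on 6 of 6 arrays. Its dim second probe gave 0.02 ± 0.0063. EEF1A1, which carries aminoacyl transfer RNAs, had -0.20, 0.31 and 0.28, a mean of 0.13 ± 0.28, and a dimmer second probe at -0.04 ± 0.12. EEF1A2, the paralogue of muscle and neurons, was above background in 4 of 6 antagonist and 2 of 6 control readings and had -0.01 ± 0.065. EIF5A, the hypusine-carrying factor that eases stalled peptide bonds, had 0.17 ± 0.15 and EIF5A2 -0.16 ± 0.16. The dimmer second probe of EIF5A gave -0.06 ± 0.024. EEF1E1, whose product sits in the transfer RNA synthetase complex, had -0.01 ± 0.26 on its brightest probe and -0.30 ± 0.27 on the other. EEF2K, the kinase that inhibits eEF2, had 0.11 ± 0.12. Of the 9 elongation genes with eIF5A, 2 were higher at unadjusted p (8.57% of all tested genes), 0 were lower (6.57% of all) and 7 did not pass.

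ETF1, the release factor that reads stop codons, had log2 intensities of 8.18, 8.10 and 8.11 in antagonist oocytes and 8.33, 8.46 and 8.27 in control oocytes. The control values all lay above the antagonist values, if only slightly, and the ratio was -0.22 ± 0.12 (limma, unadjusted p = 0.033, adjusted p = 0.35), negative on 6 of 6 arrays. Whichever cow was left out, the unadjusted p was no longer under 0.05. The Argonaute genes EIF2C2 and EIF2C3 had 0.06 ± 0.060 and -0.03 ± 0.020, near the dim end of the range.

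**Figure D3:**
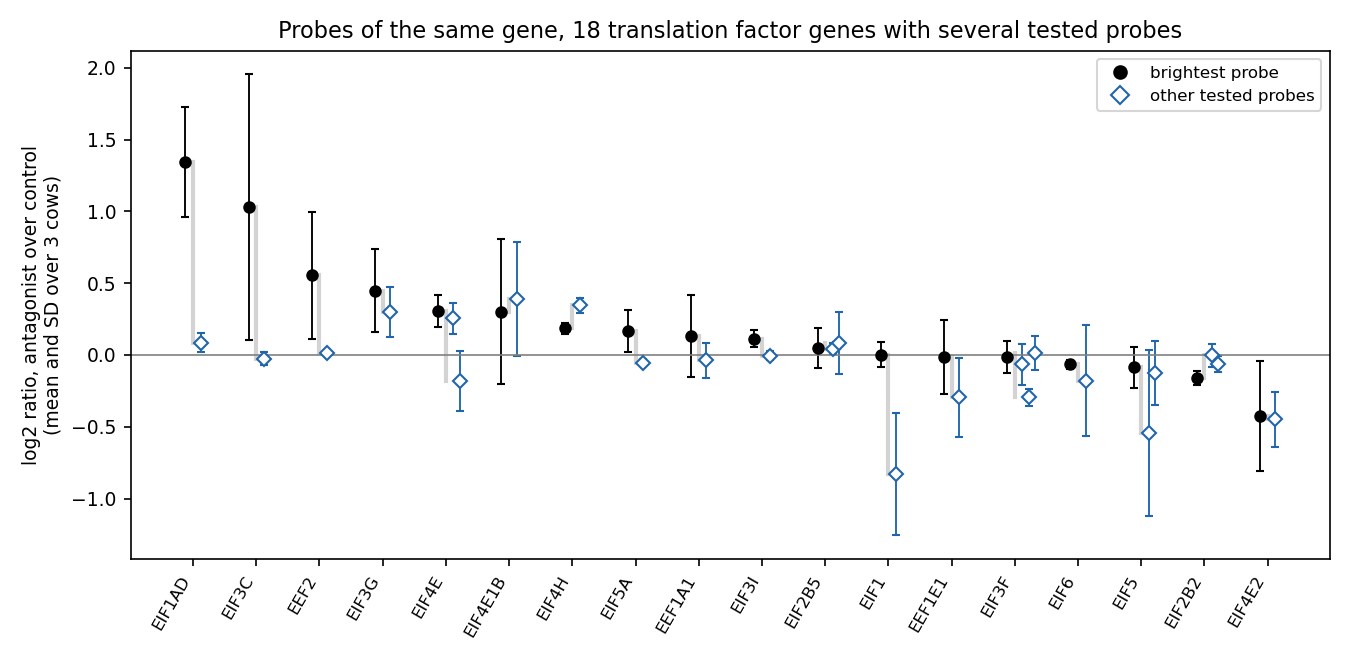
Mean log2 ratio of antagonist over control with its SD over 3 cows (vertical axis) for each probe of the 18 translation factor genes with more than 1 tested probe. Black circles are the brightest probe of a gene and open diamonds its other probes. For EIF1AD, EIF3C, EEF2 and EIF1 the probes lie more than 0.5 apart.

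Probes of the same gene often gave different ratios. Of the 18 genes with several tested probes, 11 had the same sign on all of them and 4 differed by more than 0.5 on the log2 scale, namely EIF1AD, EIF3C, EEF2 and EIF1. In EIF1AD, EIF3C and EEF2 the dimmer probe lay near 0, at a mean log2 intensity between 7.38 and 7.50. In EIF1 the dimmer probe lay far from 0 and was well above background, at 10.81. EIF4A1, EEF1D and EEF1G each had 1 probe, so their ratios have no such check. With the mean over all tested probes of a gene in place of the brightest, 6 genes were higher and 4 lower at unadjusted p. The shares of all tested genes in this setting were not computed.

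**Figure D4:**
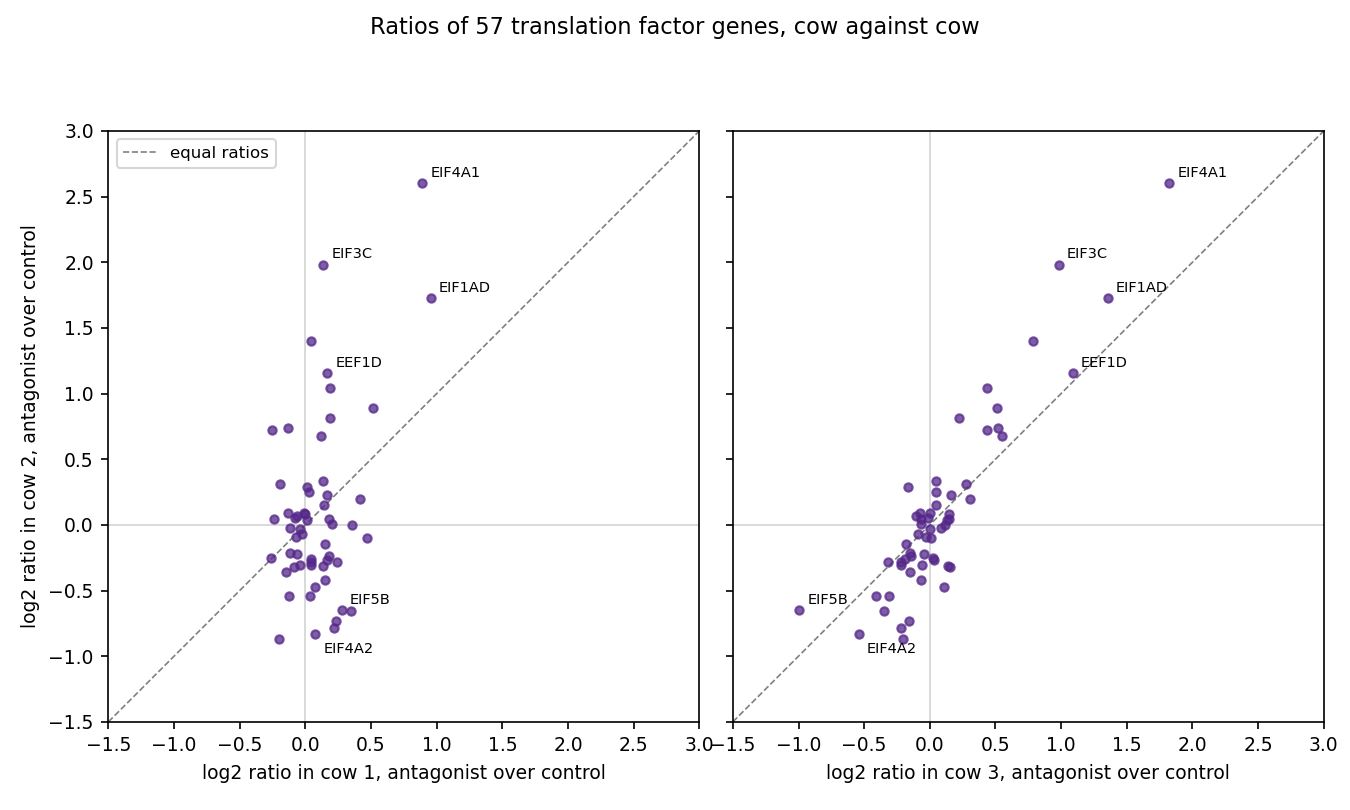
Log2 ratio of antagonist over control of the 57 translation factor genes in cow 2 (vertical axis) against cow 1 (left panel) and cow 3 (right panel), with a dashed line where ratios are equal. Points in the right panel lie along a line steeper than the dashed one, while cow 1 spans a narrow range; Pearson's r is 0.43 for cows 1 and 2 and 0.91 for cows 2 and 3.

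The ratios of the translation factors varied from cow to cow. Limma's F-test for equal ratios in the 3 cows called 41 of 57 members (71.9%) at an adjusted p under 0.05, against 54.5% of all tested genes. The members were brighter, with a median of their mean log2 intensities of 10.37 against 8.17 for all tested genes, and the part of brightness in this difference was not tested. Among genes above background in all 12 readings the shares were closer, at 40 of 52 members (76.9%) against 70%. The error term of this test comes from the dye exchange, and each cow gave 1 pair of RNAs, so animals and RNA preparations cannot be told apart. EIF4A1, EIF3C, EIF3K and EEF1D were among the 41, while EIF4E (adjusted p = 0.065 by limma) and EIF4H (adjusted p = 0.59 by limma) were not.

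Over the 57 genes, ratios had an SD of 0.24, 0.69 and 0.45 in cows 1, 2 and 3, against 0.23, 0.48 and 0.31 over all tested genes. Cow 2 had the largest ratio in size for 39 members and cow 1 the smallest for 33. Over 1.5-fold, cow 1 had 2 higher members (3.51%, against 1.99% of all tested genes) and 0 lower (against 0.512%). Cow 2 had 11 higher (19.3%, against 8.98%) and 6 lower (10.5%, against 8.86%), and cow 3 had 5 higher (8.77%, against 4.17%) and 1 lower (1.75%, against 2.31%). Cow 2 thus had the widest spread over all genes as well as over the members. Cows 2 and 3 had the same sign in 43 of 57 genes, cows 1 and 3 in 34 and cows 1 and 2 in 30. In 18 genes cow 1 alone had the other sign, and in 13 of these it was positive while cows 2 and 3 were negative, among them EIF5B, EIF4A2, EIF2S3, EEF1B2, EIF2AK3 and EIF1B. Over the 57 genes, which are not independent replicates and share the arrays of each cow, Pearson's r was 0.91 for cows 2 and 3, 0.46 for cows 1 and 3 and 0.43 for cows 1 and 2. By rank (Spearman) these were 0.78, 0.13 and 0.10. Over all 12314 genes Pearson's r was 0.80, 0.29 and 0.21 for the same pairs.

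Signs agreed in all 3 cows for 16 positive members (28.1%, against 20.7% of all tested genes) and 9 negative ones (15.8%, against 17.1%). On all 6 arrays 9 members were positive (15.8%, against 8.7%) and 3 were negative (5.26%, against 6.07%). The 9 were EIF4A1, EIF1AD, EIF3C, EEF1G, EEF2, EIF3L, EIF4E, EIF4H and EIF3I, and the 3 were EIF2S1, ETF1 and EIF4G3. A dye term was called for 41 of 57 members (71.9%, against 64.6% of all genes) at an adjusted p under 0.05 by limma, and the mean over both orientations is meant to cancel it. On single orientations the members' median was -0.05 with antagonist in Cy5 and 0.03 with control in Cy5.

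Genes that work beside the translation factors were taken from lists written with earlier results of these data known. Their counts at unadjusted p stand beside 8.57% of all tested genes higher and 6.57% lower. Mitochondrial translation factors had a median of -0.14 over 10 genes, with 2 higher and 0 lower at unadjusted p. TUFM, the mitochondrial counterpart of eEF1A, had ratios of 0.92, 0.95 and 1.24 in cows 1, 2 and 3, a mean of 1.04 ± 0.18 (limma, unadjusted p = 0.00055, adjusted p = 0.28). Its exchange factor TSFM had 0.43 ± 0.20, and its other probe gave 0.48. Of the eIF4E regulators and mTOR pathway genes, 0 of 10 were higher and 2 were lower at unadjusted p, with a median of -0.15. RPS6KB1, the kinase of ribosomal protein S6, had -0.55, -0.69 and -0.51, a mean of -0.58 ± 0.096 (limma, unadjusted p = 0.00090, adjusted p = 0.28), and MTOR had -0.23 ± 0.085.

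Among genes of eIF2 phosphorylation and its reversal, 1 of 10 was higher and 2 were lower at unadjusted p, with a median of -0.10. DNAJC3, an inhibitor of the eIF2 kinases, had 0.30 ± 0.092. DDIT3, a stress-induced transcription factor, had -0.45 ± 0.16, and its 2 other probes gave -0.39 and -0.38. PPP1CC, a catalytic subunit of the phosphatase that acts on eIF2, had -0.29 ± 0.051, with -0.58 and -0.41 on its other probes. Of 6 genes that modify eIF5A and the elongation factors, DHPS, the first enzyme of hypusine synthesis, had -0.46 ± 0.083 and a second probe at -0.08. DPH5 had 0.13 ± 0.010 on its brightest probe, while its 3 other probes lay between -0.14 and 0.04.

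Of 9 termination, recycling and reinitiation partners, 0 were higher and 1 was lower at unadjusted p. That was ABCE1, which splits ribosomes after termination, at -0.30 ± 0.14. None of the 7 poly(A) binding protein genes and partners passed at unadjusted p, with ratios between -0.53 and 0.17. Of 19 genes of cytoplasmic polyadenylation and oocyte translational control, 3 were higher and 2 lower (8.57% and 6.57% of all tested genes), with a median of -0.06. YBX2, an RNA-packaging protein of germ cells, had 0.45 ± 0.17 and CPSF1, a subunit of the cleavage and polyadenylation complex, 0.66 ± 0.32. CPSF4 had -0.47 ± 0.25. The other called genes, named after their values were seen, were CPEB1, which binds the cytoplasmic polyadenylation element, at -0.28 ± 0.15, and MSI1, an RNA-binding protein, at 0.14 ± 0.065. None of these genes passed correction over all probes.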

How the data were processed

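Group, dye and cow of each channel came from the labels; each cow was its own control by the study's design. The authors deposited raw spot intensity at 635 nm (Cy5) and 532 nm (Cy3), per the file headers. A value table of log2 ratios deposited by the authors, on an unstated normalization, ran as antagonist over control against the scanner values (slopes 0.98 to 1.00 on bright probes) and served as an alternative. The medians of its columns were 0.0010 and 0.0015 (cow 1), -0.0027 and 0.00081 (cow 2) and 0.0018 and 0.00039 (cow 3), control in Cy5 first.

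Spots ignored on any array (105 of 45220) were left out. Spot means were corrected by normexp (offset 50) and loess within arrays; control spots had no weight in the loess. Limma was version 3.58.1, run in R 4.3.3. Probes above the mean plus 2 SD of 152 negative controls in 3 or more of the 6 readings of 1 condition were tested. The 2 arrays of each cow gave 1 mean ratio, and the 3 means were tested against 0 (lmFit, eBayes, two-sided, Benjamini-Hochberg). This fit and the F-test between cows with its dye term were run on simulated data with independent probes. The alternative fits, including that with a random block for the cow, were not. Gene symbols came from the platform annotation, which can be old; 55 of 60 member symbols occur in RefSeq's ARS-UCD2.0 table and 5 are synonyms there. Each gene is given by its brightest probe. No spot mean of a member exceeded 35870, against 41132 for the brightest probe of all. Precision is limited by the number of cows, 3, since the 2 arrays of each cow are a technical dye exchange of the same RNAs. For dim probes it is also limited by signal over background. Median raw intensities lay between 191 and 277 and negative control means between 154 and 222.

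Members and lists were chosen with earlier results of these data known. Members named by rule were those at unadjusted p under 0.05 with the same sign in 3 cows and a list of 22 genes of known central roles; the others are named for completeness, after their values were seen, as are second probes. Alternatives covered background correction, normalization, filter, block, pairing, variance model, the authors' ratios, slide, orientation, each cow and the probe per gene. No label gives the slide; judged by the scanner files' names, 4 of the 6 arrays share 1.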

Additional observations from a re-analysis of the deposited data

How the results depend on the processing

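Each result was recomputed under 18 alternatives. The count of probes at an adjusted p under 0.05, 0 in the main setting (4143 by unadjusted p), stayed at 0 except with a random replicate block for the cow (848), without pairing (292), and on the arrays with antagonist in Cy5 (186) or control in Cy5 (109) alone, where the dye effect is not cancelled. It was 0 without each replicate. The count of probes that differed between cows lay between 13874 and 15723 under the settings that could give it. The translation factors' median of -0.0195 was -0.0631 with median centring, which moved the median of all genes from 0.0044 to 0.0093. It reversed to 0.0278 with control in Cy5 alone and lay between -0.0215 and 0.0329 without single replicates, reversed without cow 2. The count of higher members at unadjusted p, 7 in the main setting, was 12 with the replicate block, 4 with a trended robust variance, and 2 to 13 without single replicates. The count of lower members, 3 in the main setting, was 6 with median centring, 1 when all 12 readings had to be above background, 1 without pairing, 0 with the trended robust variance, 5 on the shared slide, 7 with antagonist in Cy5, 8 with control in Cy5, and 1 to 9 without single replicates. The shares of all tested genes at unadjusted p were not computed under the alternatives, so these counts of members have no background there. By gene, 884 of 1022 values kept their side of the threshold, with shifts of uncalled genes within their SD. The sign changed in 65, of which 17 were with antagonist in Cy5 alone, 13 with control in Cy5 alone, 11 without cow 2 and 10 on the shared slide. In 5 of them the unadjusted p was under 0.05 in the main or the other setting: EIF1 with the mean of its probes (-0.41), EIF2S2 (0.0033) and EIF4G2 (-0.24) with control in Cy5 alone, and EIF3G (-0.067) and EIF3M (0.31) with antagonist in Cy5 alone. Limma called a dye term, which 1 orientation alone does not cancel, for EIF2S2 (adjusted p = 1.1e-05), EIF4G2 (adjusted p = 6.2e-06), EIF3G (adjusted p = 3.2e-06) and EIF3M (adjusted p = 7.3e-06), and the value of EIF1 takes in its second probe. The cause of the other shifts was not tested. The authors' ratios gave the same sign for 57 of 57 members. Depth of signal limits the dim members, such as EEF1A2 and EIF2AK2.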

Other observations

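In human and mouse cells the messenger RNAs of the elongation factors and of the eIF3 subunits e, f and h begin with the same pyrimidine-rich start as those of ribosomal proteins, through which mTOR controls their translation. The bovine genes of this kind were listed after their values had been seen, so their values are a description. Over the 8 tested (EEF1A1, EEF1B2, EEF1D, EEF1G, EEF2, EIF3E, EIF3F and EIF3H) the median ratio was 0.06, with 4 above and 4 below 0. Of the elongation factors EEF1D, EEF1G, EEF2 and EEF1A1 had ratios of 0.80, 0.64, 0.56 and 0.13 and EEF1B2 had -0.22, and EIF3E, EIF3F and EIF3H had -0.11, -0.01 and -0.10. Over 67 cytosolic ribosomal protein genes the median was 0.23, with 26 higher and 2 lower at limma's unadjusted p under 0.05, against 8.57% of all tested genes higher and 6.57% lower. Ratios differed between cows in 57 of the 67 by limma's F-test at an adjusted p under 0.05, against 54.5% of all tested genes. All 67 were above background in all 12 readings, and of the tested genes with that signal 70% differed between cows.

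Across the 57 translation factors the mean ratio was lower in genes of longer genomic span in RefSeq's table (Spearman's rho -0.30 across genes), and over 11356 of the 12314 tested genes rho was -0.16. The genes share arrays and amplification, and the relation is given as a description. With the mean log2 intensity of the probe, rho was 0.13 over the members and -0.05 over all tested genes.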
